A study of Mus musculus with 6 samples.

Results

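The machinery of MHC class I presentation was followed through 9 genes taken by symbol from a deposited table of 13007: the heavy chains H2-K1 and H2-D1, their partner B2m, the transporter and loading genes Tap1, Tap2 and Tapbp, the interferon-induced proteasome subunits Psmb8 and Psmb9, and the regulator Nlrc5. All 9 were in the table, and all 9 passed the filter on low counts. MHC class I presentation is the route by which nucleated cells show fragments of their own proteins to CD8 T cells. Proteasomes cut the proteins, the TAP transporter moves the peptides into the endoplasmic reticulum, and tapasin holds an empty class I molecule at the transporter until a peptide binds. The loaded molecule, a polymorphic heavy chain paired with beta-2 microglobulin, then goes to the cell surface. Interferon-gamma and the coactivator NLRC5 raise most of these genes together, and leukocytes carry far more class I than maturing red cells do.

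Poly-A RNA of sorted mouse bone marrow cells (C57BL/6) was sequenced in 3 libraries of acute erythroid leukemia (AEL) and 3 of normal erythroid precursors (NC). AEL cells are labelled Trp53-/-ERG-expressing, and were GFP-positive cells sorted after transduction with an ERG construct that also expresses GFP. NC cells are labelled WT, and were sorted from normal marrow after staining for CD71 and Ter119, markers of the red cell lineage. The tissue label, the same for all 6 libraries, mentions mutations of SETBP1 and ASXL1, in conflict with the WT label of NC. The groups were sorted on different markers, so the leukemia and the sort cannot be told apart in any difference below. The titles call the replicates biological, but no label names separate animals, and p-values therefore cover only the spread among these libraries. Whether that spread is technical or between animals is not given. It was wider in AEL than in NC, with a coefficient of variation common to all genes of 44.1% and 9.01%. The fit nevertheless used a single spread per gene for both groups.

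Library totals ran from 8171676 to 9945330 counts. Levels are given as CPM, counts scaled to a common library total with a trimmed-mean (TMM) correction. Changes are log2 fold changes, positive where AEL is higher, with their SE, from edgeR's quasi-likelihood test with adjusted p over 12427 genes. Of these genes 6563 passed at an adjusted p of 0.05, which is 52.8%, with 29% lower and 23.9% higher in AEL, so a call by itself was common. Higher genes made up 45.2% of the calls, 55.2% when only library totals were used for scaling and 55.5% after quantile normalization, and the median change of all genes was -0.05, 0.14 and 0.11 under these scalings. Erythroid markers were present in both groups: 10 of 11 were in the table, with sums of 4227 to 9768 CPM in AEL and 32031 to 43230.0 CPM in NC. Of these 7 were called lower and 0 higher (edgeR, with 8 and 0 at an unadjusted p under 0.05). The sums hide unlike genes: Gata1, Epor and Ermap were not called, while Slc4a1 was at 344, 51.2 and 4.30 CPM in AEL against 3400 to 4581 CPM in NC. Markers of leukocytes were also present, mostly in NC, and their values are given beside the results.

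Of the 9 class I genes, 7 lie on chromosome 17 (GRCm38) within the mouse MHC. In GENCODE coordinates these are Tapbp (33915899 to 33929292), H2-K1 (33996017 to 34000347), Psmb9 (34181987 to 34187764), Tap1 (34187553 to 34197225), Psmb8 (34197721 to 34201454), Tap2 (34203527 to 34216321) and H2-D1 (35262730 to 35267499). B2m lies on chromosome 2 (122147686 to 122153083) and Nlrc5 on chromosome 8 (94434356 to 94527272). Tap1 and Psmb9 face away from each other, and an annotated Psmb9 exon reaches into the first exon of Tap1 on the opposite strand. Whether reads were counted by strand is not given in the sources used here, so counts in that overlap could fall to either gene. Exons of Tap2, Psmb8, Nlrc5 and Tapbp also overlap other annotated genes on the opposite strand, and exons of Tapbp overlap Zbtb22 on the same strand.

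Promoter sequences are shown because most of these genes were lower in AEL and because class I promoters are known for shared elements. These are a kappa B site, an interferon-stimulated element, and the X2 and Y boxes on which NLRC5 acts with its partners. RefSeq promoters (GRCm38.p6) matched 7 members. In the 250 bases before each start, on both strands, 5 motifs were searched. For kappa B this was GGGGA followed directly by TTCCC. For the interferon-stimulated element it was a strict core, GAAA, then 2 free bases, then GAAA. The others were TTCNNNGAA (STAT palindrome), TGACG (X2 core) and GATTGG (inverted CCAAT with a leading G, for the Y box). Capitals mark the matches on either strand. The stretches of H2-K1 (chr17:34000348-34000597, minus strand) and B2m (chr2:122147437-122147685, plus strand) were:
H2-K1: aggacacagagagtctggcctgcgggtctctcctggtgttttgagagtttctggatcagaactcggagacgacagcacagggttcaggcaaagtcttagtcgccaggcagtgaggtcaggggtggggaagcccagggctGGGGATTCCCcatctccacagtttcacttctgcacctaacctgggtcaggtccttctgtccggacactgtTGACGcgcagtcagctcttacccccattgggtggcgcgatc
B2m: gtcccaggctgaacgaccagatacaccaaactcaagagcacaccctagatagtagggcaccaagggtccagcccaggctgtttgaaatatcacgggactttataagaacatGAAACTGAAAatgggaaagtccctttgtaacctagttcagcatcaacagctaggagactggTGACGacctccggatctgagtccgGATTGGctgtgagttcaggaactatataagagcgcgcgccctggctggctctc
For H2-D1, the Tap1 and Psmb9 stretch and Psmb8, where GENCODE annotates exons over the window, only 30 bases around a match are shown, on the plus strand. They are the H2-D1 kappa B match (chr17:35262913-35262942), the H2-D1 X2 match (chr17:35262981-35263010), the X2 match between Tap1 and Psmb9 (chr17:34187458-34187487) and the Psmb8 STAT match (chr17:34198088-34198117):
H2-D1 kappa B: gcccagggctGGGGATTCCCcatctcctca
H2-D1 X2: ccgggacactgaTGACGcgctggcaggtct
Tap1 and Psmb9 X2: cccagagacaggTGACGacagagggtcctg
Psmb8 STAT: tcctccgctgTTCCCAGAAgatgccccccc
The kappa B letters were found in 2 of the 7 member promoters, H2-K1 and H2-D1, and in 0.0852% of all 32851 RefSeq promoters. These 2 genes are close paralogs with nearly the same bases around the match, so their matches are not independent. The motifs were chosen as known class I elements, so these shares are no test of enrichment. In both, the kappa B match began 70 bases before the TGACG match, although RefSeq sets the starts at different distances from them (kappa B 111 bases before the start in H2-K1 and 171 in H2-D1). TGACG was found in 5 of 7 (17.8% of all promoters) and GATTGG in 4 of 7 (14.6%), with Tap1 and Psmb9 sharing their matches because they share the stretch. The H2-K1 stretch holds ATTGG without the leading G and was not counted. The strict interferon-stimulated core was found in B2m alone of the 7 (2.98% of all promoters), and TTCNNNGAA in Psmb8 alone (7.02%). Looser forms of these motifs were not searched, so a promoter without a match may still hold the element. These are matches of letters, and no binding was measured.

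The class I genes were lower in AEL: 8 of 9 fell and 0 rose, against 29% of all genes lower. At an unadjusted p under 0.05, 8 were lower and 0 higher, and DESeq2 and limma gave the same counts. The median log2 fold change of the 9 was -1.88, beside -0.05 for all genes tested. All AEL libraries lay below all NC libraries for these 8 genes, as they did for 36.1% of all genes. The member that did not pass was Tap2.

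**Figure D1:**
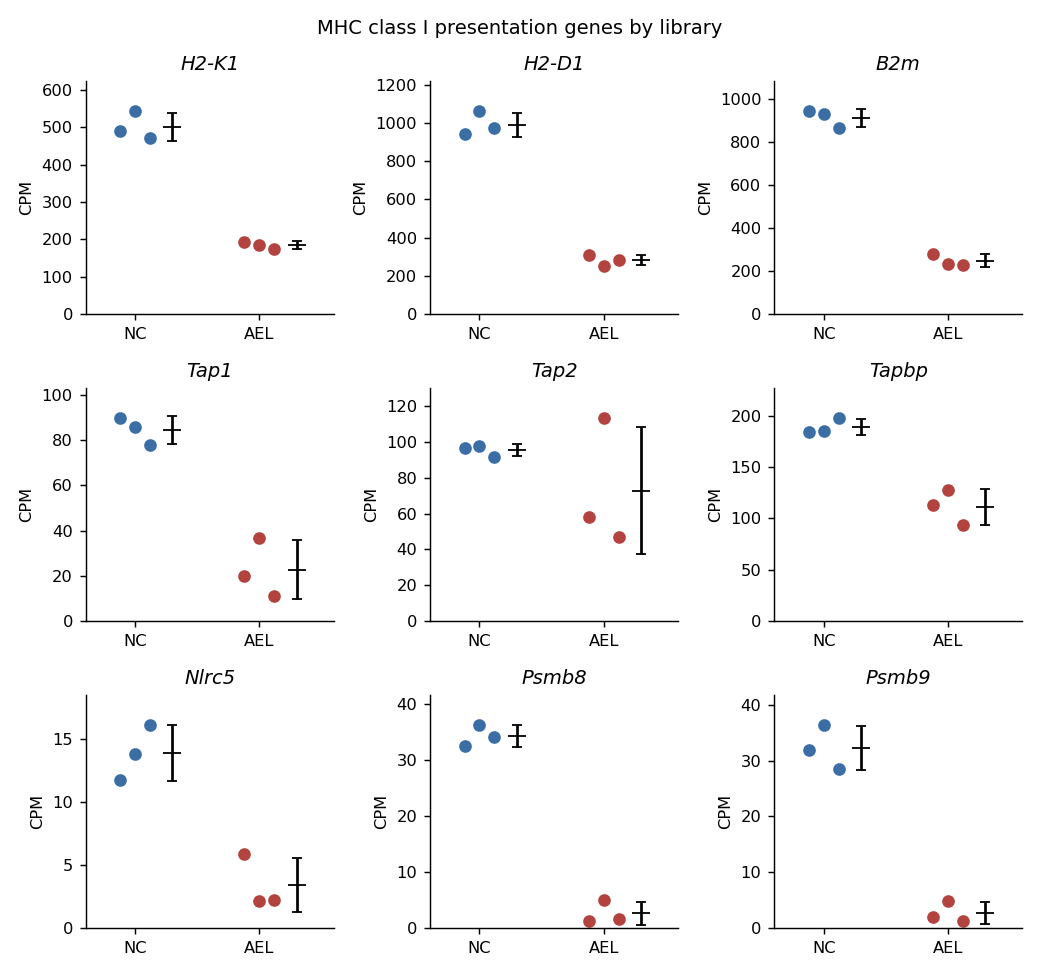
CPM of each class I gene (vertical axis, from 0) in the 3 NC (blue) and 3 AEL (red) libraries, with the mean and SD beside the points. AEL libraries sit below NC libraries in every panel except Tap2, where AEL replicate 2 (113 CPM) is above all NC libraries.

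H2-K1, which encodes the K heavy chain, was at 194, 186 and 174 CPM in AEL replicates 1 to 3 and at 489, 542 and 470.4 CPM in NC replicates 1 to 3. The groups did not overlap, and the AEL libraries were close to each other. H2-K1 fell 2.71-fold (log2 change -1.44, SE 0.11, edgeR adjusted p = 0.000243). H2-D1, which encodes the D heavy chain, was at 308, 254 and 286 CPM in AEL and stood at 940.3, 1059.8 and 972 CPM in NC. It fell 3.51-fold (log2 change -1.81, SE 0.12, edgeR adjusted p = 0.000182). B2m, the light chain that every classical class I molecule needs, was at 283, 233 and 231 CPM in AEL and stood at 943, 929 and 867 CPM in NC. It fell 3.67-fold (log2 change -1.88, SE 0.13, edgeR adjusted p = 0.000176). These 3 structural genes varied little within AEL: the highest library was 1.11 times the lowest for H2-K1, 1.21 times for H2-D1 and 1.22 times for B2m.

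Counts of the 2 heavy chains could be mixed in part, since they are close paralogs. Of the 50-base stretches in H2-K1 coding transcripts 5.43% also occur in H2-D1 transcripts, and 6.87% occur in some other gene. For H2-D1 13.9% occur in some other gene, with H2-Q1, H2-K1 and H2-Q7 sharing most. B2m shared 0 of 811 such stretches with any other annotated gene, and its log2 fold change of -1.88 was beside -1.81 for H2-D1.

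Tap1 and Tap2 encode the subunits of the peptide transporter. Tap1 was at 20.2, 36.7 and 11.1 CPM in AEL and stood at 89.7, 85.8 and 77.8 CPM in NC, and it fell 3.73-fold (log2 change -1.90, SE 0.40, edgeR adjusted p = 0.00766). Tap2 was at 58.3, 113 and 46.9 CPM in AEL and stood at 96.9, 97.6 and 91.7 CPM in NC. AEL replicate 2 lay above every NC library and the other AEL libraries lay below them all, so the groups overlapped. The change of -0.39 on the log2 scale (SE 0.32) missed the threshold (edgeR adjusted p = 0.333). Without AEL replicate 2 Tap2 was lower too, by a log2 change of -0.80 (edgeR adjusted p = 0.00269), and all 9 members were then called lower. Tapbp, which encodes tapasin, had the smallest fall among the members called: 113, 127 and 93.2 CPM in AEL and 184, 185 and 197 CPM in NC (log2 change -0.76, SE 0.14, edgeR adjusted p = 0.00409).

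The interferon-induced proteasome subunits had the largest fold changes of the 9. Psmb8, which replaces Psmb5 in the immunoproteasome, held 11, 46 and 17 counts in AEL and 252, 307 and 297 counts in NC. In CPM these were 1.24, 4.99 and 1.56 against 32.5, 36.3 and 34.2. Psmb8 fell 13.2-fold (log2 change -3.72, SE 0.53, edgeR adjusted p = 0.00179). Psmb9, which replaces Psmb6, held 18, 45 and 13 counts in AEL and 247, 308 and 247 counts in NC. It was at 2.03, 4.89 and 1.19 CPM against 31.9, 36.4 and 28.5 CPM, and it fell 11.96-fold (log2 change -3.58, SE 0.51, edgeR adjusted p = 0.00176). Both genes were highest in AEL replicate 2, at 4.03 and 4.11 times the lowest AEL library, and even there stood far below NC. Without AEL replicate 2 the log2 changes were -4.52 for Psmb8 and -4.27 for Psmb9, and after quantile normalization -2.94 and -2.81.

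Nlrc5, which encodes the coactivator of class I promoters, was at low level in both groups. It was at 5.86, 2.17 and 2.20 CPM in AEL and stood at 11.7, 13.8 and 16.1 CPM in NC. The groups did not overlap, and it fell 4.08-fold (log2 change -2.03, SE 0.46, edgeR adjusted p = 0.0101). Its highest AEL library was replicate 1, not replicate 2, and its log2 change was -1.31 after quantile normalization.

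Divided by exon length, the order of levels was nearly the same in both groups. In NC, B2m led with 1061 ± 46.9 CPM per kb (SD, n = 3), then H2-D1 with 471 ± 29.4, H2-K1 with 302 ± 22.4 and Tapbp with 65.1 ± 2.59 CPM per kb. Tap1 (28.6 CPM per kb), Tap2 (27.7), Psmb9 (23.8) and Psmb8 (21.1) followed, and each overlapped its neighbour in this order. Nlrc5 was last with 1.71 ± 0.270 CPM per kb. In AEL, B2m again led with 289 ± 34.2 CPM per kb (SD, n = 3), followed by H2-D1 with 134 ± 13.0 and H2-K1 with 112 ± 5.92 CPM per kb. Tapbp (38.3 CPM per kb) and Tap2 (21.2) overlapped there, and Tap2 stood above Tap1 (7.67). Psmb9 (2.00 CPM per kb) and Psmb8 (1.59) overlapped, and Nlrc5 was last with 0.420 CPM per kb. Transcript choice sets these lengths, so small gaps between genes are uncertain.

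Ratios of 2 genes within a library do not depend on library scaling, and 8 pairs were compared between the groups. With 3 libraries against 3, the smallest p that an exact two-sided permutation test can give is 0.1, so none could pass. The log2 ratio of Psmb8 to Psmb5 counts was -5.61, -2.61 and -4.31 in AEL and -1.22, -0.99 and -0.91 in NC, a difference of -3.14 (exact permutation p = 0.1, adjusted p = 0.114 over the 8 pairs). It was -2.42 without AEL replicate 1 and -3.92 without AEL replicate 2. For Psmb9 to Psmb6 the difference was -3.50, again with no overlap, and -4.13 without AEL replicate 2. Psmb10 to Psmb7, the remaining induced and constitutive pair, went the other way, with log2 ratios of -2.34, -2.64 and -1.92 in AEL and -3.12, -2.89 and -2.69 in NC. Its difference was 0.60 (exact permutation p = 0.1). So 2 of the 3 induced subunits were lower relative to their constitutive partners and the third was higher.

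The remaining ratios described the class I molecule and its transporter. The H2-D1 to B2m ratio overlapped between the groups, with a difference in log2 ratio of 0.07 (exact permutation p = 0.6). H2-K1 was higher relative to B2m by 0.45 and relative to H2-D1 by 0.38, with no overlap (exact permutation p = 0.1 each). Tap1 was lower relative to Tap2 in every AEL library, at -1.53, -1.62 and -2.08 against -0.11, -0.19 and -0.24 in NC (exact permutation p = 0.1). Tap1 and Psmb9, which share a promoter stretch, moved unequally: the log2 ratio of Tap1 to Psmb9 was 1.72 higher in AEL, with no overlap (exact permutation p = 0.1), and 1.49 higher with 5 counts added in place of 0.5.

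**Figure D2:**
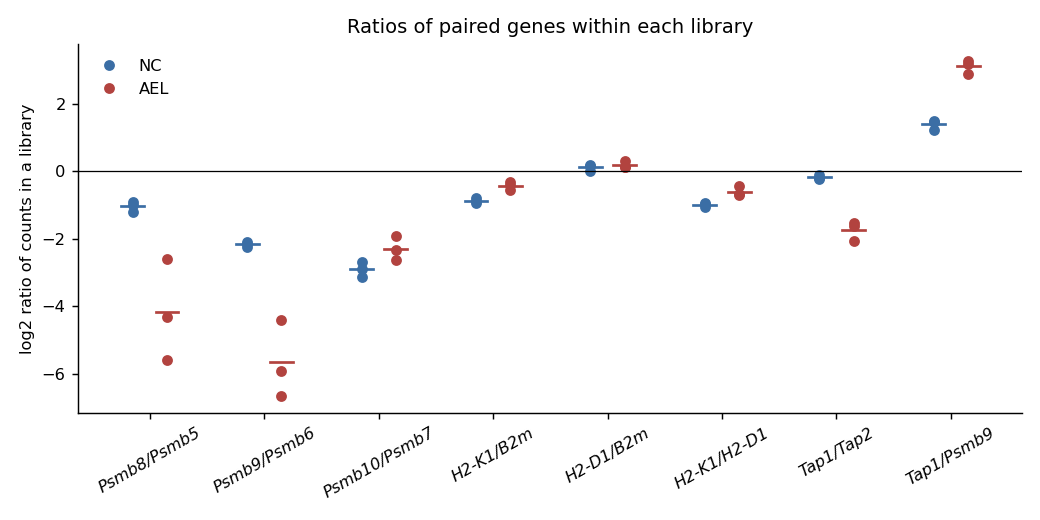
Log2 ratio of the counts of 2 genes within each library (vertical axis) for 8 pairs, with NC in blue, AEL in red and a line at each group's mean. Psmb8/Psmb5, Psmb9/Psmb6 and Tap1/Tap2 are lower in all AEL libraries, and H2-D1/B2m overlaps.

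The AEL libraries differed in which class I genes were highest. Relative to the NC mean on the log2 scale, the median of the 9 members was -1.68, -1.96 and -1.98 in AEL replicates 1 to 3, beside -0.06, -0.06 and -0.12 for all genes. AEL replicate 2 had the highest level of 5 members (Tap1, Tap2, Tapbp, Psmb8 and Psmb9), and replicate 1 of the other 4 (H2-K1, H2-D1, B2m and Nlrc5). AEL replicate 3 was highest for 0 members and lowest for 6. The coefficient of variation between AEL libraries ran from 5.30% for H2-K1 to 80.2% for Psmb8, and in NC from 3.38% to 15.8%.

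Most leukocyte markers were lower in AEL as well. Macrophage markers, 12 of 12 in the table, summed to 4672 to 5609 CPM in NC and 10.4 to 271 CPM in AEL. Neutrophil markers, 12 of 12, summed to 7776 to 9041 CPM in NC and 18.7 to 1102 CPM in AEL. B cell markers (11 of 11) summed to 255 to 308 CPM in NC and 2.14 to 2.93 CPM in AEL, and T and NK cell markers (4 of 11) to 48.6 to 55.6 CPM against 0.225 to 0.824 CPM. Dendritic cell markers (8 of 9) summed to 142 to 152 CPM in NC and 92.1 to 103 CPM in AEL, and most of the AEL sum came from Tcf4, Zbtb46 and Bst2 (means of 49.4, 29.2 and 16.0 CPM). Of the other dendritic markers, Siglech fell 29.5-fold, Itgax 12.1-fold and Flt3 3.94-fold. Called lower were 12 macrophage, 11 neutrophil, 11 B cell, 4 T and NK cell and 5 dendritic genes (29% of all genes). Every B cell and T and NK cell gene, and also C1qa, C1qc, Cd14 and Siglech, stayed under 1 CPM in each AEL library. They met the filter on low counts through NC alone and could not have been called higher, so their calls are no support beside the 29%. Of all these lists 1 dendritic gene was called higher (23.9% of all genes). No marker was at 0 in every AEL library, but Rag1, Lck and Cd2 each held 1 count in total over the AEL libraries. Ptprc, the pan-leukocyte antigen CD45, was at 0.676, 20.5 and 3.39 CPM in AEL and stood at 146, 160 and 166 CPM in NC. In bulk RNA, fewer leukocytes and less class I RNA per cell cannot be told apart, and the part of these cells in the fall was not tested.

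Within AEL the markers and the class I genes can be set side by side. Macrophage and neutrophil sums were highest in AEL replicate 2 (271 and 1102 CPM) and lowest in replicate 1 (10.4 and 18.7 CPM), a spread of 59.0-fold for neutrophil markers. In replicate 3 the sums were 97.6 and 120 CPM. H2-K1, H2-D1, B2m and Nlrc5 were highest in AEL replicate 1, where these markers were lowest. Psmb8, Psmb9, Tap1, Tap2 and Tapbp were highest in replicate 2, where these markers were highest. Psmb8 was also lowest in replicate 1, but Psmb9, Tap1, Tap2 and Tapbp were lowest in replicate 3 and so did not follow the order of the markers. With 3 libraries no test of this was made.

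**Figure D3:**
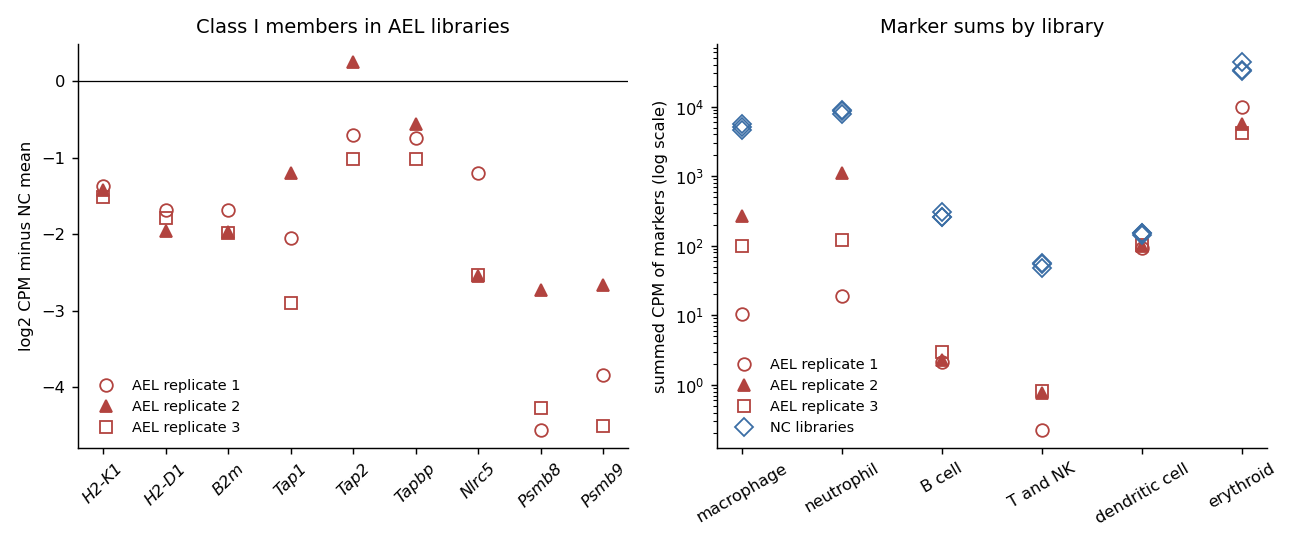
Left, log2 CPM minus the NC mean of each class I gene in the 3 AEL libraries. Right, summed CPM of each marker list in every library on a log axis, with AEL in red and NC in blue. AEL replicate 2 (filled triangles) is highest for Tap1, Tap2, Tapbp, Psmb8 and Psmb9 and for macrophage and neutrophil markers.

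Other class I-like heavy chains, of which 13 of 19 were in the table, were lower as well: 9 fell and 0 rose (edgeR, 29% of all genes lower; at an unadjusted p under 0.05 10 were lower and 0 higher, and DESeq2 and limma also gave 0 higher). Their median log2 fold change was -2.16, and the number lower was 5 to 6 without any single NC replicate. H2-Q6 did not pass the filter on low counts in those fits and was not tested there. Fcgrt, the neonatal Fc receptor, which binds IgG and pairs with beta-2 microglobulin, was at 0.338, 1.41 and 0.275 CPM in AEL and stood at 122, 108 and 140 CPM in NC (log2 change -7.51, SE 0.49). Hfe, the class I-like protein of iron sensing, was at 0, 1.19 and 0.183 CPM against 20.1, 22.1 and 24.4 CPM. H2-Q6 and H2-Q7, which encode Qa-2 antigens, were at -5.54 (SE 0.42) and -5.06 (SE 0.72), and as near-identical copies they may share reads. Their size depended on the fit: Fcgrt was at -8.53 without AEL replicate 2, H2-Q7 at -6.60 without AEL replicate 3, and with limma Fcgrt, H2-Q6 and H2-Q7 were at -6.27, -3.50 and -3.72, or -5.76, -2.79 and -3.06 after quantile normalization. H2-T23, which encodes the Qa-1 ligand of NK cell receptors, was at 77.1, 162 and 52.1 CPM in AEL and stood at 183, 194 and 176 CPM in NC. It did not pass (edgeR adjusted p = 0.0812), but it was lower without AEL replicate 2, at -1.46 on the log2 scale (edgeR adjusted p = 0.000672), and by DESeq2 with all libraries (adjusted p = 0.0296). The falls in this list stand beside the leukocyte marker sums given above.

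Genes for the other catalytic subunits of the proteasome, constitutive and induced, its activators and an assembly factor were mixed: of 9, 3 fell and 2 rose (29% and 23.9% of all genes), with a median of -0.46. The 3 that fell were Psmb7, a constitutive catalytic subunit (-0.51, SE 0.13), Psme1, a subunit of the interferon-induced PA28 activator (-1.08, SE 0.35), and Pomp, an assembly factor (-0.48, SE 0.14). With library totals alone, or without NC replicate 1 or 2, 0 of these were called. The Psme1 call also ended without NC replicate 3, and that of Pomp without AEL replicate 1 or 3. Psme3 (0.77, SE 0.12) and Psme4 (0.40, SE 0.12), other proteasome activators, rose, and the Psme4 call ended without any single NC replicate. Psmb5 was at 63.1, 30.7 and 31.7 CPM in AEL and stood at 75.9, 72.0 and 64.3 CPM in NC (-0.76, edgeR adjusted p = 0.0665), and was called lower by DESeq2 (adjusted p = 0.0365) and without AEL replicate 1 (-1.08, edgeR adjusted p = 0.00239). Psmb6 was at 127, 106 and 125 CPM against 142, 156 and 135 CPM (edgeR adjusted p = 0.0913). Psmb10, the third interferon-induced catalytic subunit, was at 38.2, 25.5 and 48.4 CPM in AEL and stood at 31.7, 34.3 and 35.5 CPM in NC, with overlapping groups and a log2 change of 0.14 (SE 0.24, edgeR adjusted p = 0.645) that was -0.041 without AEL replicate 3. Psme2 was low in both groups, with means of 2.45 CPM (AEL) and 3.35 CPM (NC), and 54.9% of its 50-base stretches also occur in Psme2b, so its level is uncertain.

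Genes for peptide trimming and for the general folding of class I rose where they were called: of 12, 6 rose and 0 fell (edgeR, 23.9% of all genes higher; at an unadjusted p under 0.05 6 were higher and 0 lower, and DESeq2 and limma also gave 0 lower), with a median of 0.37. The number higher was 3 without any single NC replicate and 8 with library totals alone. Lnpep, an aminopeptidase of endosomal cross-presentation, was at 117, 150.4 and 157 CPM in AEL and stood at 27.5, 42.1 and 45.5 CPM in NC (log2 change 1.88, SE 0.22). Npepps, a cytosolic aminopeptidase, rose by 0.90 (SE 0.11), and Thop1, an oligopeptidase that destroys peptides, rose by 0.81 (SE 0.28). The Thop1 call was lost when any 1 NC library, or AEL replicate 1 or 3, was left out. Calr, the calreticulin chaperone of the loading complex, was at 821, 506 and 596 CPM in AEL and stood at 512, 564 and 532 CPM in NC and did not pass (edgeR adjusted p = 0.283), but was called higher without AEL replicate 2 (0.47, edgeR adjusted p = 0.0281). Erap1, the aminopeptidase that trims peptides in the endoplasmic reticulum, was at 57.3, 89.2 and 68.8 CPM against 52.1, 54.5 and 58.4 CPM (edgeR adjusted p = 0.116), and was called higher without AEL replicate 1 (0.62, edgeR adjusted p = 0.0153).

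Among 11 factors of class I promoters, 3 rose and 2 fell (23.9% and 29% of all genes), with a median of -0.05. Rfx5, a DNA-binding subunit of the X box complex with which NLRC5 works, was at 18.9, 60.1 and 22.5 CPM in AEL and stood at 13.8, 12.8 and 11.3 CPM in NC (log2 change 1.42, SE 0.46, edgeR adjusted p = 0.0365). All AEL libraries were above all NC libraries, with replicate 2 far above the others, and without replicate 2 the log2 change was 0.79. The call ended without any single NC replicate. Its partner Rfxap rose by 0.67 (SE 0.20), and its call was lost without any 1 NC library or AEL replicate 3. Nfkb1, a subunit that binds kappa B sites, was at 151, 169 and 177 CPM in AEL and stood at 59.0, 71.3 and 67.5 CPM in NC (1.33, SE 0.13, edgeR adjusted p = 0.000453). Ciita, the class II counterpart of Nlrc5, was at 0.225, 0.326 and 0.183 CPM in AEL and stood at 3.48, 7.56 and 7.03 CPM in NC (-4.56, SE 0.52; -2.44 with limma and -1.49 after quantile normalization), beside the B cell and macrophage marker sums given above. Nfyc, a subunit of the Y box factor, fell by 0.74 (SE 0.16). Without any single NC replicate 1 factor was called higher and 1 lower, and Ciita was not tested in those fits.

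Of 13 genes that carry interferon signals to these promoters, 5 fell and 1 rose (29% and 23.9% of all genes), with a median of -0.33. Irf1, an interferon-induced activator of class I genes, was at 0.338, 1.74 and 0.641 CPM in AEL and stood at 30.4, 37.0 and 36.8 CPM in NC. It fell 38.0-fold (log2 change -5.25, SE 0.53, edgeR adjusted p = 0.000550), beside -3.72 for Psmb8, the largest change among the 9 members; the difference was not tested. The Irf1 change was -6.00 without AEL replicate 2, -4.29 with limma and -3.74 after quantile normalization. Most leukocyte markers, given above, were also lower in AEL, and their part was not tested. Ifnar2, a type I interferon receptor chain, was at 54.0, 47.4 and 36.1 CPM against 88.9, 88.9 and 88.4 CPM (-0.95, SE 0.17). Tyk2, a kinase of that receptor, rose 3.00-fold, from 50.4 to 60.3 CPM in the NC libraries to 103 to 249 CPM in AEL (log2 change 1.59, SE 0.31). Leaving out any 1 NC library left 3 called lower, and leaving out AEL replicate 1 or 3 gave 2 called higher.

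**Figure D4:**
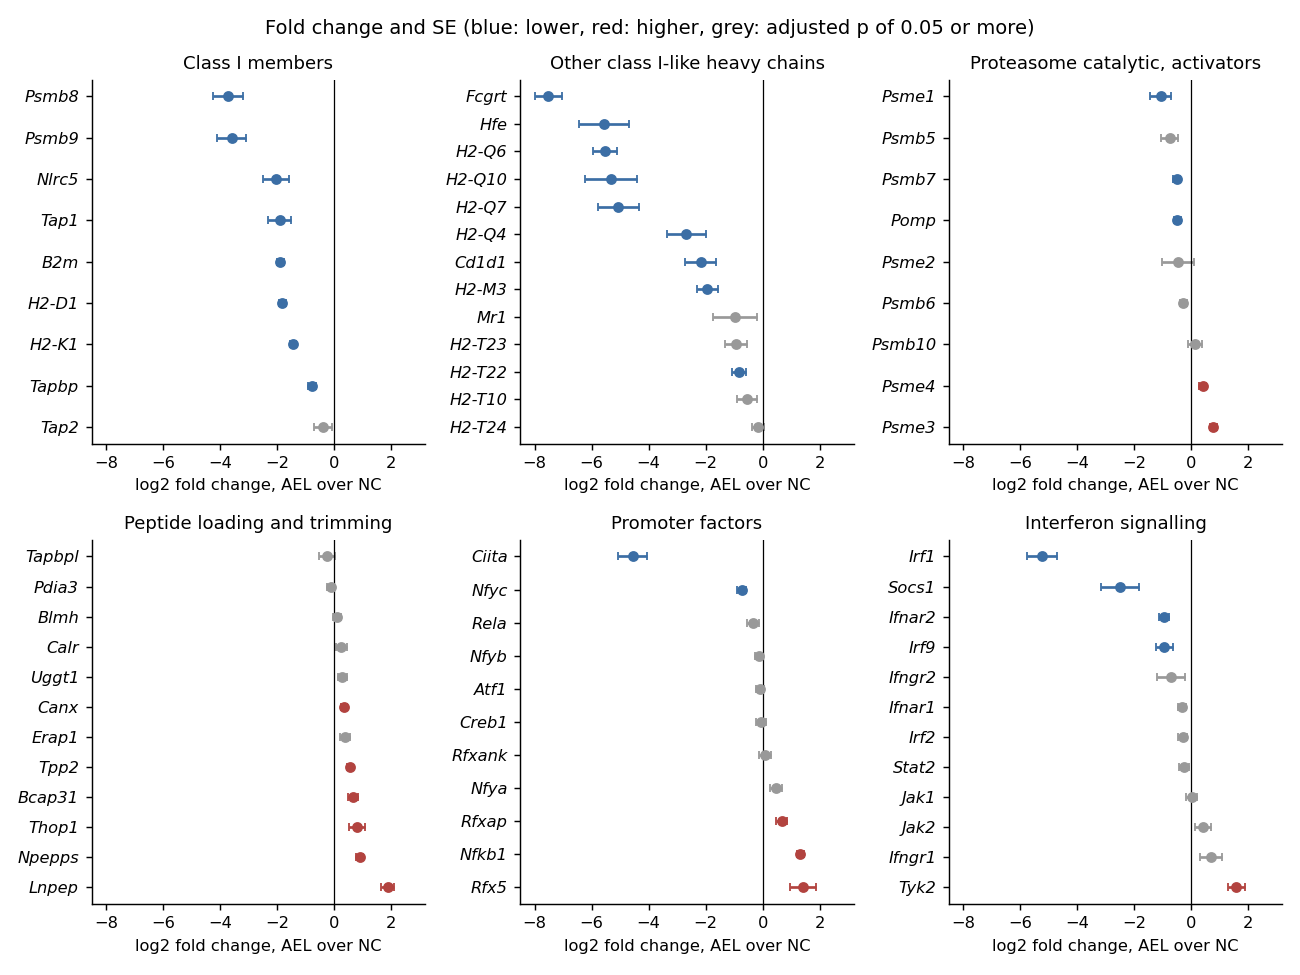
Log2 fold change of AEL over NC with its SE (horizontal axis) for measured genes of 6 lists, in blue where called lower, red where called higher and grey where not called. The class I members and the other heavy chains lie left of 0, and the loading and trimming genes called lie right of it.

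Among 9560 genes with at least 10 CPM on average in the higher group, likeness to the members was measured as the root mean square difference from their median profile over the 6 libraries, on log2(CPM + 1) relative to the NC mean. The median over all ranked genes was 1.41. The 5 nearest included Gba2 (0.101), Renbp (0.106), Pcna (0.112) and Grina (0.112), 3.88-fold to 4.43-fold lower in AEL, with Renbp at a log2 change of -1.18 after quantile normalization. Gba2 encodes a glucosylceramidase, and Pcna the sliding clamp of DNA replication.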

How the data were processed

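Each of 6 samples (3 AEL, 3 NC) gave 1 column of a single deposited table. Its values are whole-number counts per gene with unequal totals, although its name says CPM, as found in the deposited file. Per the submitters' processing notes, edgeR 3.32.1 and the build mm10 played some part, with no role given. The sources used here give no aligner, counter or strand setting. All 13007 rows exceed 1 CPM in at least 2 libraries, so genes below that cannot appear.

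The 12427 genes that reached 1 CPM in 3 or more libraries were tested with edgeR 4.0.16 (R 4.3.3) with TMM scaling, group as the only term and Benjamini-Hochberg adjustment at 0.05. Each SE was derived from the log2 fold change and its F statistic. DESeq2 1.42.0 and limma 3.58.1 were alternatives. The code was tested on simulated data. Ratios add 0.5 counts. Lengths are the union of GENCODE vM21 basic exons, with GRCm38 taken as mm10. Named genes are the 9 members, 15 genes always given (1 of them, counted in the interferon list, is not reported here), per list up to 3 called in each direction at 10 CPM or more, and the 5 nearest profiles, of which 4 are named; other genes named from a list were chosen after their values were seen. The members and lists were chosen with earlier results of these data known. No 2 libraries of a group agree within sampling noise (chi-square per degree of freedom 4.72 to 8.61 in NC and 43.9 to 55.2 in AEL). Depth was 8171676 to 9945330 counts, where 3 counts equal 0.302 to 0.367 CPM.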

Additional observations from a re-analysis of the deposited data

How the results depend on the processing

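The number of class I members called lower was 8 in each of the alternatives run except 1, without AEL replicate 2, where it was 9, and 0 were higher in any. Their 9 log2 fold changes kept their direction in all 135 comparisons with an alternative, and 1 changed its call (Tap2). Calls depended on the NC libraries elsewhere, with fewer samples in the fit and fewer genes tested. The filter of 1 CPM in 3 libraries was applied again after a library was left out. Without an NC library 11449 to 11460 genes were tested, beside 12427 with all libraries. Genes that reached 1 CPM in NC alone, H2-Q6 and Ciita among them, were then not tested. With all libraries such genes were tested but could not have been called higher. Leaving out 1 library gave 1672 to 3253 genes higher and 1779 to 3834 lower over all genes, 5 to 11 other heavy chains lower, 3 to 8 loading and trimming genes higher, 1 to 2 proteasome genes higher and 0 to 3 lower, 1 to 4 promoter factors higher and 1 to 2 lower, and 1 to 2 interferon genes higher and 3 to 5 lower. With library totals alone 0 proteasome genes were lower, and with a filter of 5 CPM 1 promoter factor was lower, since Ciita was then not tested. Psmb10, at 0.14 with all libraries, ran from -0.041 without AEL replicate 3 to 0.43 without replicate 2, and Psme2 at 0.45 with quantile normalization; the cause was not tested.

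The replicate numbers are shared by the groups, but same-numbered libraries did not deviate together (correlations 0.0824, -0.0167 and -0.0314), so they were not treated as pairs. With the replicate block 8 members were lower and 0 higher, 2241 genes were higher and 3238 lower over all genes, and 1 proteasome gene was higher. At 11 to 46 counts in AEL, depth limits the size of the Psmb8 and Psmb9 changes.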
